A study of Homo sapiens with 8 samples.

Results

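The genes described here encode proteins of the complement system and of the acute phase response, 36 genes listed by name, of which 30 had at least 10 counts in at least 2 of 8 RNA sequencing libraries and were tested. The libraries were made from HepG2 cells, a human hepatocellular carcinoma line of hepatocyte origin, of wild-type genotype by the labels. All cells came from one line in the same serum-containing medium. In 4 libraries (2D-primed) the cells had spent 8 days on flat culture plates, and in the other 4 (3D-primed) the same 8 days on Alvetex Strata, an inert porous polystyrene scaffold. The 3D-primed cells were seeded more densely, so that seeding density and substrate cannot be told apart, and both groups were released with trypsin and scraping before polyadenylated RNA was extracted. The labels number the replicates but do not say that they were separate cultures, so the p-values measure the spread between these samples, which may be technical. HepG2 cultures hold a single transformed cell type without the macrophages, endothelium and stellate cells of liver.

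Complement is a cascade of plasma proteins, made largely by hepatocytes, that marks microbes and damaged cells for removal. The classical, lectin and alternative routes each assemble a convertase that cleaves C3, and C5 cleavage then starts assembly of the membrane attack complex from C6, C7, C8 and C9. Fluid-phase and membrane-bound regulators keep the cascade from host surfaces. Acute phase proteins are plasma proteins whose synthesis in the liver changes with inflammation, largely through interleukin-6 and interleukin-1, acting through STAT3, C/EBP and NF-kappa-B.

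The question was which of these genes differed in RNA level between 2D-primed and 3D-primed cells. Levels are estimated counts per gene scaled to library size with TMM factors (CPM), as mean ± SD of 4 libraries (n = 4). The log2 fold change (log2FC, with its standard error SE) is 3D-primed over 2D-primed, and a gene was called higher or lower in 3D-primed cells at a Benjamini-Hochberg adjusted p under 0.05 in edgeR's quasi-likelihood test across 13943 genes. In bulk RNA, fewer cells carrying a transcript and less transcript per cell cannot be told apart. The libraries held 21599630 to 27844077 counts, and genes of mitochondrial DNA took 1.40 to 1.81% of them in 2D-primed cells, against 2.47 to 2.98% in 3D-primed cells. The part of that difference in the values below was not tested.

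One library stood apart for some genes of this kind. In 2D-primed replicate 2, CRP, SAA1, SAA2 and C9 together held 3.63 CPM, against 0 to 0.0844 CPM in the other 2D-primed libraries and 0.466 to 0.708 CPM in 3D-primed libraries. These 4 were grouped after the values were seen, from the 6 genes not tested. Of the others, LBP had 2, 2, 0 and 0 counts and CFHR3 0, 3, 0 and 0 counts in 2D-primed libraries. The tested SAA4, ORM1 and ORM2 lay within the range of the other 2D-primed libraries in 2D-primed replicate 2, and HP and HPX above it. The same library held 9.64 CPM of 13 adult hepatocyte genes, a list made after the values were seen, against 1.10 to 1.39 CPM in the other 2D-primed libraries and 2.26 to 4.52 CPM in 3D-primed libraries. Of the 13, 11 were highest there, which is no separate evidence since the list followed the values. Some rest on very few counts, such as GYS2 with 2. CYP2E1 had 76 counts there, against 6 to 8 in the other 2D-primed and 7 to 31 in the 3D-primed libraries. Without this library HPX gained a call and MBL2 and ORM1 lost theirs, and HPX is given both ways below.

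Of the 30 genes tested, 16 were higher in 3D-primed cells, 7 were lower and 7 were not called, so that 76.7% were called where 63.9% of all genes tested were. By direction, the background was 32.4% higher and 31.6% lower. The median log2 fold change of the 30 was 0.18, against 0.01 over all genes tested. The groups of 4 did not overlap for 21 of the 30, against 59.8% of all genes tested. Changes of at least 2-fold were found in SAA4, C8A and MASP2, all higher in 3D-primed cells, and in SERPING1, which was lower. The corresponding background was 4.86% for called genes at least 2-fold higher and 7.01% for those at least 2-fold lower. These counts describe a chosen list and were not tested as a set. All 30 genes had at least 10 counts in all 8 libraries, the lowest value being 35.

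**Figure D1:**
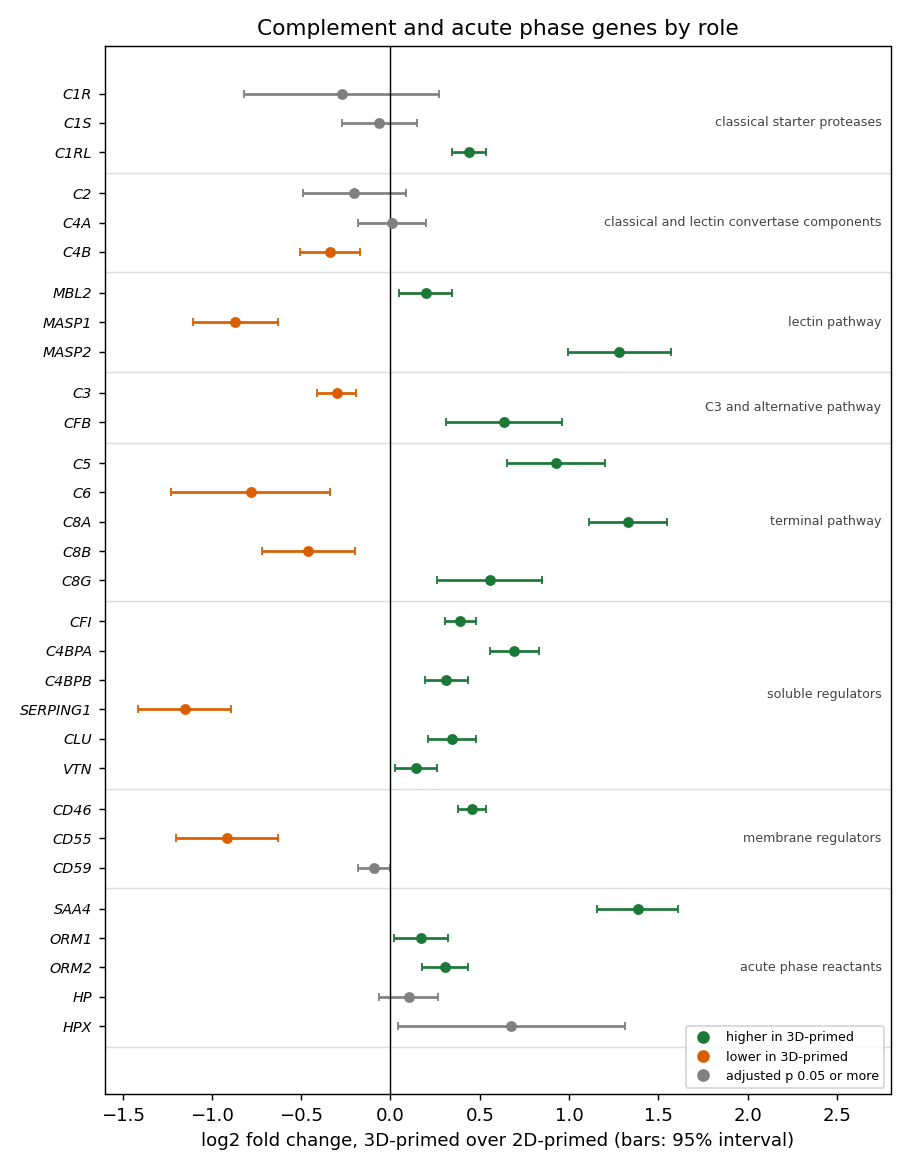
Log2 fold change (3D-primed over 2D-primed) of the 30 tested genes on the x axis, grouped by role on the y axis, with bars for the 95% interval. Green marks the 16 genes higher in 3D-primed cells, orange the 7 lower and grey the 7 not called, and 5 of the 8 role groups hold genes of both directions.

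The RNA of these genes was dominated by C3, which made up 72.1% of their counts in 2D-primed cells, against 64.9% in 3D-primed cells. CLU followed with 6.93 and 9.71%. Per kilobase of the canonical transcript, C3 stood at 1629 CPM in 2D-primed cells and at 1322 CPM in 3D-primed cells, CLU 297 and 378 CPM, and VTN 234 and 259 CPM. All 36 genes together took 1.17 ± 0.0211% of the counts of 2D-primed and 1.08 ± 0.0412% of those of 3D-primed libraries. The share of the lectin pathway genes was 0.0185 ± 0.00141% in 2D-primed cells, against 0.0125 ± 0.00118% in 3D-primed cells, while that of the terminal pathway genes was 0.0150 ± 0.000742% and 0.0269 ± 0.00483%. The soluble regulators took 0.149 ± 0.00378% and 0.188 ± 0.0102%.

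**Figure D2:**
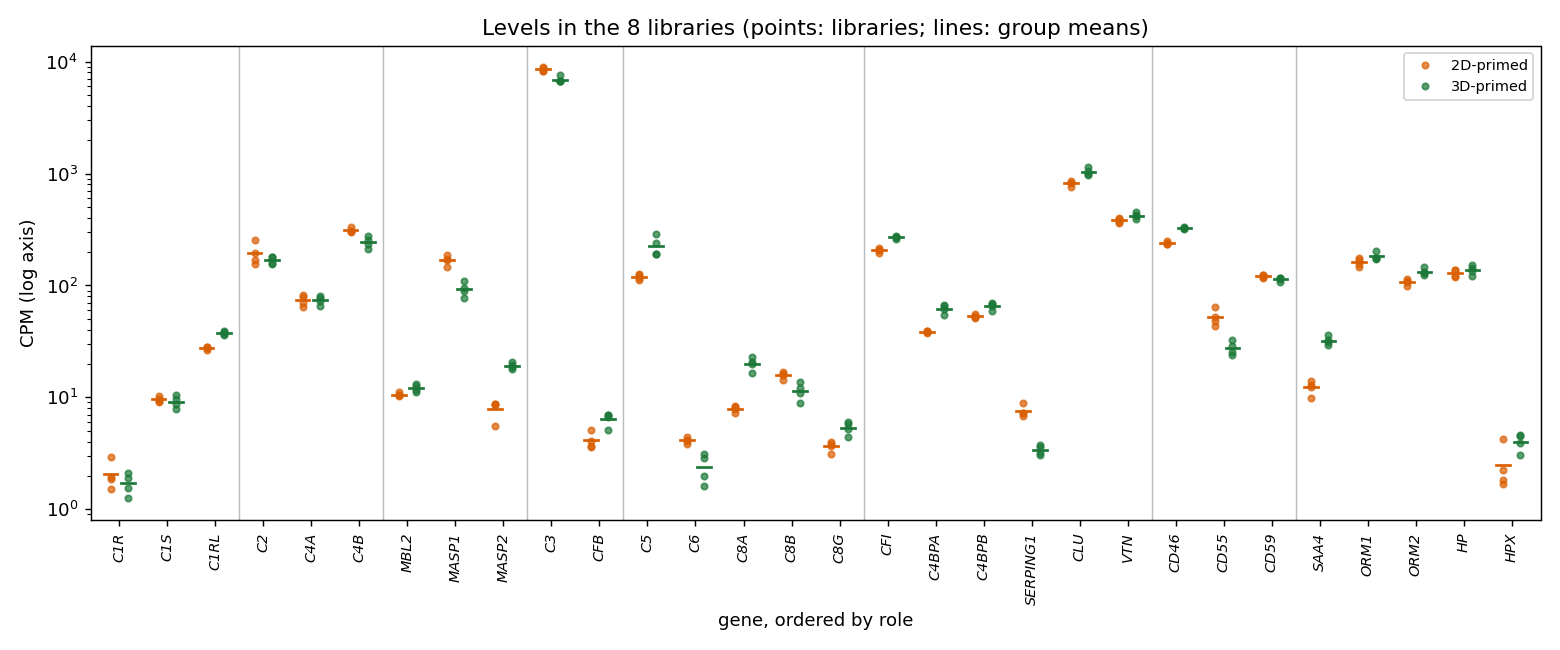
CPM of the 30 tested genes in each library on a log axis, with genes in the order of their roles, points for libraries and lines for group means. C3 lies above all others in both groups, and C1R, C6, SERPING1 and HPX are among the lowest.

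In the lectin pathway the RNA of the protease genes moved in opposite directions. Mannose-binding lectin (MBL2) recognises microbial sugars, and the serine proteases MASP1 and MASP2 travel with it. MASP1 activates MASP2, which cleaves C4 and C2. The RNA of MASP2 was higher and that of MASP1 lower in 3D-primed cells. The counts are per gene, so alternative transcripts of a gene were not told apart. Their promoters, the 250 bases before the RefSeq start in GRCh38.p14, are shown because these genes of one route moved in opposite directions. MASP2 is read from the minus strand of chr1:11047240-11047489 and MASP1 from the minus strand of chr3:187291738-187291987. Capitals mark the STAT3 motif TTCNNNGAA, which starts 86 bases before the MASP2 start. None of the 6 motifs searched was found in the MASP1 window, most of which lies inside the MASP1 gene of GENCODE, whose start is further upstream.
MASP2: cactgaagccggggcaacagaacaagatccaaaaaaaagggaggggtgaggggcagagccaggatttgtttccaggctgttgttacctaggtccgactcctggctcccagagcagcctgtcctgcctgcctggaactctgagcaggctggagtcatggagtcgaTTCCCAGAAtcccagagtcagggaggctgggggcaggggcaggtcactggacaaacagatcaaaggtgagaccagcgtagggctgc
MASP1: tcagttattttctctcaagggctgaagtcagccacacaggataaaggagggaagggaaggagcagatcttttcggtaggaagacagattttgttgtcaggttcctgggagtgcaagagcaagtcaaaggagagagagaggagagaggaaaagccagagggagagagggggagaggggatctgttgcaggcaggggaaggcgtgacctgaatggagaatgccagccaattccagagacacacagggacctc

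MASP2 (ENSG00000009724), which spans 11022009 to 11047239 of chromosome 1 in GRCh38, stood at 8.52, 8.73, 5.53 and 8.73 CPM in the 2D-primed libraries and at 20.7, 19.4, 17.9 and 18.5 CPM in the 3D-primed libraries. Every 3D-primed library lay above every 2D-primed one, and 2D-primed replicate 3 was the lowest of all. The level went from 7.88 ± 1.57 to 19.1 ± 1.23 CPM, a 2.43-fold increase (log2FC 1.28, SE 0.129, edgeR adjusted p = 1.1e-05). MASP1 (ENSG00000127241), on chromosome 3 from 187217282 to 187291980, was counted at 146, 173, 188 and 168 CPM in the 2D-primed and at 95.4, 88.4, 109.5 and 76.6 CPM in the 3D-primed libraries. Here the 2D-primed libraries all lay above the 3D-primed ones. The 2D-primed level was 1.83-fold that of 3D-primed cells (log2FC -0.87, SE 0.106, edgeR adjusted p = 4.5e-05). The ratio of MASP2 to MASP1 counts went from 0.0475 ± 0.0126 to 0.211 ± 0.0336, with no overlap. MBL2 was counted at 10.6 ± 0.376 CPM and 12.2 ± 0.886 CPM (log2FC 0.20, edgeR adjusted p = 0.026). Its call was lost with DESeq2, where the adjusted p was 0.10, and without any of 5 single libraries, 2D-primed replicates 1, 2 and 3 and 3D-primed replicates 2 and 4, where the adjusted p ran from 0.056 to 0.078.

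Of the proteases that start the classical route, C1R and C1S, which form a complex with C1q, were not called. C1RL, a C1r-like protease, was higher in 3D-primed cells. C1RL (ENSG00000139178), on chromosome 12 from 7089587 to 7109238, was counted at 27.8, 28.4, 26.6 and 28.2 CPM in 2D-primed and at 36.7, 36.2, 39.2 and 38.4 CPM in 3D-primed libraries. The groups were apart, and the spread within each was small (log2FC 0.44, SE 0.0432, edgeR adjusted p = 9.1e-06). C1R was counted at 1.92, 2.94, 1.51 and 1.86 CPM in 2D-primed and at 1.89, 2.13, 1.25 and 1.55 CPM in 3D-primed libraries. These values overlapped, with a log2 fold change of -0.27 and a 95% interval from -0.82 to 0.27 (edgeR adjusted p = 0.35). C1S stood at 9.58 ± 0.561 and 9.18 ± 1.13 CPM, with an interval from -0.27 to 0.15. C1R and C1RL overlap by 2954 bases on the same strand, and the files do not record how reads within that stretch were divided.

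C2 and C4 supply the convertase of the classical and lectin routes. C4A and C4B are near-identical genes on chromosome 6, so the division of reads between them is uncertain, and reads of C2, CFB, C4A and C4B could also have been divided with identifiers that the annotation used here does not hold, which took 2.38 to 2.57% of the counts of a library. C4B was counted at 304, 299, 333 and 304.5 CPM in 2D-primed and at 212, 255, 277 and 237 CPM in 3D-primed libraries. Every 2D-primed library lay above every 3D-primed one (log2FC -0.34, SE 0.0747, edgeR adjusted p = 0.0024). C4A was counted at 64.6, 82.7, 69.9 and 78.2 CPM in 2D-primed and at 73.2, 77.0, 81.2 and 65.9 CPM in 3D-primed libraries. The groups overlapped throughout, and the log2 fold change was 0.01 with an interval from -0.18 to 0.20 (edgeR adjusted p = 0.94). C2 was counted at 157, 170.5, 253 and 193 CPM in 2D-primed and at 180, 155, 159 and 180 CPM in 3D-primed libraries. Its 2D-primed values were spread by replicate 3, the highest, and C2 was not called (log2FC -0.20, interval from -0.49 to 0.09, edgeR adjusted p = 0.20).

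C3, the protein on which all routes converge, was lower in 3D-primed cells, whereas factor B (CFB), which supplies the protease of the alternative convertase, was higher. C3 (ENSG00000125730), on chromosome 19 from 6677704 to 6730562, was counted at 8232, 8867, 8693 and 8291 CPM in 2D-primed and at 6726, 6657, 7616 and 6666 CPM in 3D-primed libraries. The groups did not overlap, and 3D-primed replicate 3 lay nearest to the 2D-primed libraries (log2FC -0.30, SE 0.0493, edgeR adjusted p = 3.5e-04). CFB was counted at 4.08, 5.14, 3.66 and 3.63 CPM in 2D-primed and at 5.13, 6.95, 6.95 and 6.63 CPM in 3D-primed libraries. The lowest 3D-primed library lay just under the highest 2D-primed one, while the means gave a log2FC of 0.64 (edgeR adjusted p = 0.0030). CFB shares 24 bases with the end of C2 on the same strand.

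In the terminal pathway all 5 genes tested were called, where 63.9% of all genes tested were. C5, which is cleaved to start the attack complex, and the C8 chains C8A and C8G were higher in 3D-primed cells, and C6 and C8B were lower. C8 is assembled from an alpha, a beta and a gamma chain, encoded by C8A, C8B and C8G. C8A (ENSG00000157131), on chromosome 1 from 56854768 to 56918223, was counted at 8.25, 8.39, 7.24 and 7.81 CPM in 2D-primed and at 19.8, 22.8, 20.5 and 16.5 CPM in 3D-primed libraries. The groups were far apart, with a 2.51-fold increase (log2FC 1.33, SE 0.0986, edgeR adjusted p = 1.4e-06). C8B lies 10.984 kb away on the opposite strand, from 56929207 to 56974383. It was counted at 14.3, 15.8, 16.2 and 16.7 CPM in 2D-primed and at 13.8, 11.0, 12.1 and 8.89 CPM in 3D-primed libraries. All 3D-primed libraries lay below the 2D-primed ones, although replicates 1 of both groups were close (log2FC -0.46, edgeR adjusted p = 0.0055).

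Per kilobase of transcript, the ratio of C8A to C8B was 0.435 in 2D-primed cells, against 1.52 in 3D-primed cells, so that the order of these chains was turned. The counts themselves gave a ratio of 0.505 ± 0.0585 in 2D-primed libraries, against 1.77 ± 0.270 in 3D-primed ones. C8G on chromosome 9 went from 3.65 ± 0.400 to 5.36 ± 0.712 CPM (log2FC 0.55, edgeR adjusted p = 0.0038). C5 (ENSG00000106804), on chromosome 9 from 120932987 to 121075195, was counted at 124, 126, 116 and 112 CPM in 2D-primed and at 191, 241, 288 and 190 CPM in 3D-primed libraries. Each 3D-primed library exceeded each 2D-primed one, and the 3D-primed libraries were the more variable (log2FC 0.93, SE 0.123, edgeR adjusted p = 8.0e-05). C6 went from 4.13 ± 0.231 to 2.40 ± 0.714 CPM (log2FC -0.78, edgeR adjusted p = 0.0056). C9, the pore-forming component, did not pass the filter, with 0, 19, 0 and 1 counts in 2D-primed libraries, against 0, 6, 3 and 2 counts in 3D-primed ones.

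**Figure D3:**
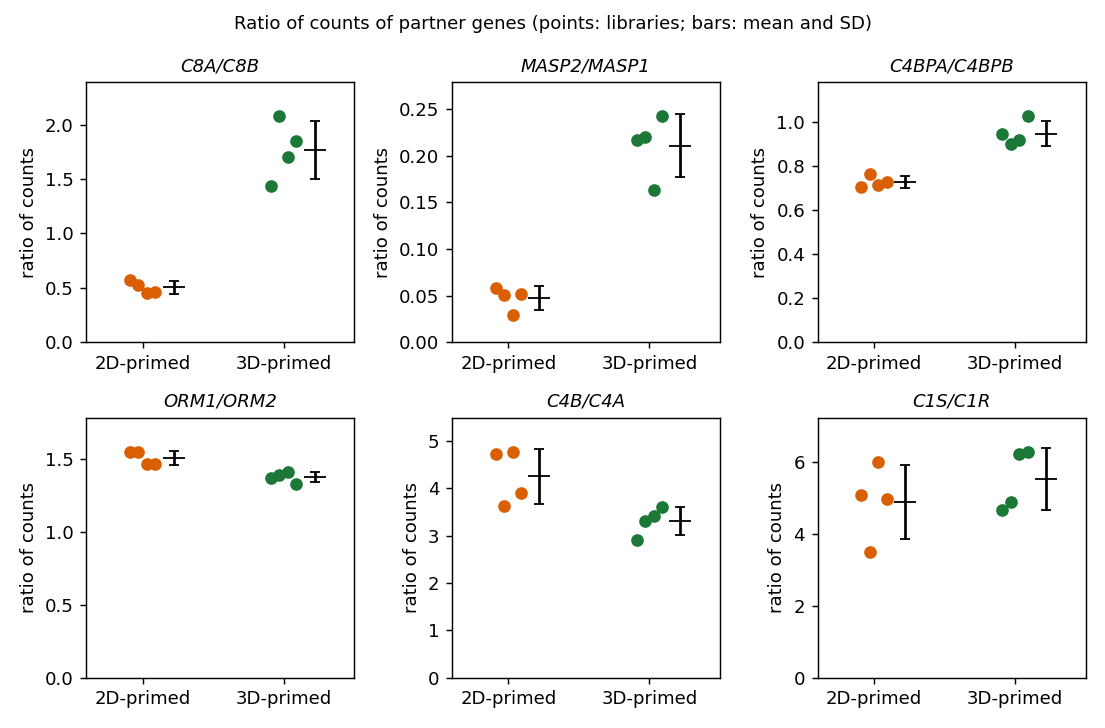
Ratio of the counts of 6 partner pairs in each library (points) by group, with the mean and SD beside them. C8A/C8B and MASP2/MASP1 lie far apart between groups, ORM1/ORM2 and C4B/C4A are lower in 3D-primed cells, and C1S/C1R overlaps.

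The 6 partner pairs were chosen after the values were seen, so their ratios are given without a test. The ratios of C8A/C8B, MASP2/MASP1, C4BPA/C4BPB, ORM1/ORM2 and C4B/C4A did not overlap between groups, and those of C1S/C1R did. For C8A/C8B and MASP2/MASP1 this follows from the opposite directions of the genes themselves. The C4B/C4A ratio went from 4.25 ± 0.581 to 3.30 ± 0.294.

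Among the soluble regulators, 5 of 6 tested genes were higher in 3D-primed cells and SERPING1 was lower. Over all genes tested, 32.4% were higher and 31.6% lower. C4b-binding protein, a cofactor for inactivation of C4b, is built from an alpha chain (C4BPA) and a beta chain (C4BPB), whose genes lie 4.24 kb apart on chromosome 1. Factor I (CFI) is the protease that inactivates C3b and C4b. Clusterin (CLU) and vitronectin (VTN) bind the forming attack complex, and the C1 inhibitor (SERPING1) blocks C1r, C1s and the MASPs. The C4BPA promoter (RefSeq, GRCh38.p14, plus strand of chr1:207103983-207104232) is shown because, of the 23 promoters matched, it alone holds the HNF1 motif GTTAATNAT. Capitals mark that motif, which starts 50 bases before the start.
C4BPA: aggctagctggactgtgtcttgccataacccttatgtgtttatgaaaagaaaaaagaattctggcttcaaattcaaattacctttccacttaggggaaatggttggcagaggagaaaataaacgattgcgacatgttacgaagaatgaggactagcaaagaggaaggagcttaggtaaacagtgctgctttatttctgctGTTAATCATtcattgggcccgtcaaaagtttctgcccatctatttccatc

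C4BPA (ENSG00000123838), from 207104233 to 207144972, was counted at 38.9, 39.0, 37.7 and 38.2 CPM in 2D-primed and at 66.1, 61.5, 54.5 and 66.6 CPM in 3D-primed libraries. All 3D-primed libraries were higher (log2FC 0.69, SE 0.0618, edgeR adjusted p = 4.8e-06). C4BPB went from 53.0 ± 1.66 to 65.8 ± 4.72 CPM (log2FC 0.31, edgeR adjusted p = 5.0e-04). The ratio of C4BPA to C4BPB counts went from 0.726 ± 0.0255 to 0.945 ± 0.0562. CFI (ENSG00000205403), on chromosome 4 from 109731008 to 109802150, was counted at 214, 208, 196 and 207 CPM in 2D-primed and at 276, 273, 261 and 270.5 CPM in 3D-primed libraries. These groups were apart as well (log2FC 0.39, SE 0.0388, edgeR adjusted p = 9.8e-06). SERPING1 (ENSG00000149131), on chromosome 11 from 57597387 to 57619171, was 2.22-fold lower in 3D-primed cells, at 7.53 ± 0.912 against 3.39 ± 0.331 CPM, with no overlap (log2FC -1.15, SE 0.117, edgeR adjusted p = 1.2e-05).

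CLU on chromosome 8 went from 818 ± 38.5 to 1038 ± 83.6 CPM (log2FC 0.34, edgeR adjusted p = 5.2e-04). VTN went from 381 ± 19.5 to 421 ± 23.9 CPM with overlapping groups (log2FC 0.14, edgeR adjusted p = 0.033). The VTN call was lost without 2D-primed replicate 1 or 3 or 3D-primed replicate 1 or 3 (adjusted p from 0.069 to 0.097), and without the filter on low counts (adjusted p = 0.051). CFHR3, a factor H related protein, had at most 3 counts in any library.

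The membrane regulators CD46, CD55 and CD59 shield host cells, and CD46 was higher in 3D-primed cells, CD55 lower and CD59 not called. CD46 is a cofactor for factor I, CD55 hastens decay of the convertases and CD59 blocks the attack complex. CD46 (ENSG00000117335), on chromosome 1 from 207752037 to 207795513, was counted at 241, 235, 232 and 248 CPM in 2D-primed and at 329, 321, 331 and 329 CPM in 3D-primed libraries. The higher 3D-primed values were apart from the 2D-primed ones (log2FC 0.46, SE 0.0352, edgeR adjusted p = 1.8e-06). CD55 (ENSG00000196352), 365.233 kb away on the same strand, from 207321519 to 207386804, was counted at 43.1, 47.7, 64.7 and 52.7 CPM in 2D-primed and at 25.3, 28.8, 32.3 and 24.0 CPM in 3D-primed libraries. All 2D-primed libraries were higher, by 1.89-fold on the whole (log2FC -0.92, SE 0.128, edgeR adjusted p = 1.2e-04). C4BPB, C4BPA, CD55 and CD46 lie in this order on chromosome 1, with CD55 alone of the 4 lower in 3D-primed cells. They are not consecutive, since the complement receptor genes CR2 and CR1 lie between CD55 and CD46. CD59 on chromosome 11 had 121 ± 3.60 and 114 ± 4.38 CPM and was not called (log2FC -0.09, edgeR adjusted p = 0.072), although its groups did not overlap. With DESeq2 it was called lower at an adjusted p of 0.044, and without 3D-primed replicate 1 at 0.048 in edgeR. Median-of-ratios size factors and edgeR's own filter on low counts also gave the call (edgeR adjusted p = 0.048 and 0.047).

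Of the 9 acute phase reactants, SAA4, ORM1 and ORM2 were higher in 3D-primed cells, HP and HPX were not called, and CRP, SAA1, SAA2 and LBP did not pass the filter. SAA4 encodes a serum amyloid A that the liver makes constitutively, while SAA1 and SAA2 are the strongly inducible forms. The SAA4 promoter (RefSeq, GRCh38.p14, minus strand of chr11:18236803-18237052) is shown because SAA4 changed most of the 30 genes. Capitals mark the C/EBP motif TTGCNNAA, found on either strand, which starts 236, 69 and 54 bases before the start.
SAA4: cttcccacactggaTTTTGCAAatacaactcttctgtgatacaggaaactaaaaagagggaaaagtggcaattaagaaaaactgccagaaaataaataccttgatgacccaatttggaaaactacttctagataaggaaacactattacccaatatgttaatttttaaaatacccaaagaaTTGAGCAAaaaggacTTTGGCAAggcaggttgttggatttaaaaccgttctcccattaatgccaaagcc

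SAA4 (ENSG00000148965), on chromosome 11 from 18231355 to 18236802, was counted at 13.0, 12.4, 9.89 and 14.1 CPM in 2D-primed and at 35.8, 32.4, 29.5 and 31.0 CPM in 3D-primed libraries. The lowest 3D-primed library lay well above the highest 2D-primed one. The level rose 2.61-fold, from 12.3 ± 1.78 to 32.2 ± 2.70 CPM (log2FC 1.38, SE 0.102, edgeR adjusted p = 1.3e-06). SAA2, 2.421 kb from SAA4, had 0, 10, 0 and 0 counts in 2D-primed libraries, against 1, 0, 6 and 0 counts in 3D-primed ones. SAA1 had 0, 17, 0 and 1 counts in 2D-primed libraries, against 5, 1, 1 and 4 counts in 3D-primed ones. SAA1 and SAA2 are near-identical, so that the division of these few reads between them is uncertain.

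C-reactive protein (CRP), the classical inducible reactant, had 0, 38, 1 and 0 counts in 2D-primed libraries, against 9, 9, 3 and 6 counts in 3D-primed ones. The highest library was 2D-primed replicate 2, and the other 2D-primed libraries held 1 count or none. LBP, which binds bacterial lipopolysaccharide, had at most 3 counts in any library. A count of 0 allows up to 3 counts, which is 0.108 to 0.137 CPM depending on the library, and these limits cover counting error only. No fold was computed for these genes.

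**Figure D4:**
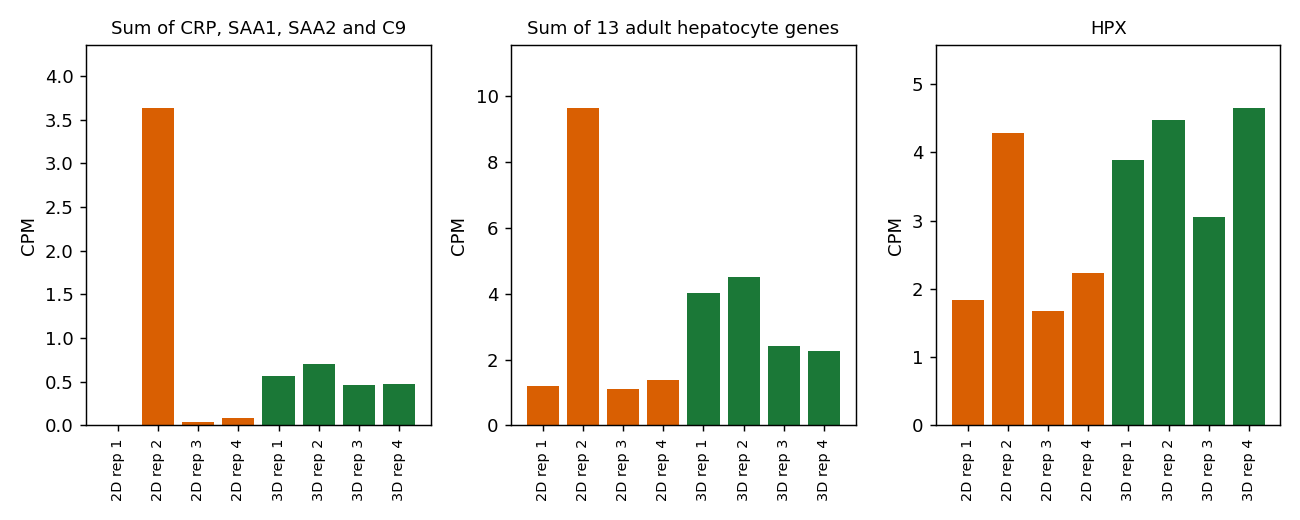
CPM per library (bars) of CRP, SAA1, SAA2 and C9 together, of 13 adult hepatocyte genes together, and of HPX. Among 2D-primed libraries (orange), replicate 2 is the highest in all 3 panels, at 3.63, 9.64 and 4.28 CPM.

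Hemopexin (HPX), a scavenger of free haem, was counted at 1.83, 4.28, 1.67 and 2.24 CPM in 2D-primed and at 3.89, 4.47, 3.05 and 4.65 CPM in 3D-primed libraries. The 2D-primed replicate 2 lay among the 3D-primed libraries and the other 2D-primed libraries below all of them. With all 8 libraries HPX was not called (log2FC 0.68, interval from 0.04 to 1.31, edgeR adjusted p = 0.059). Without 2D-primed replicate 2 the log2 fold change was 1.06 (edgeR adjusted p = 0.0011), and the part of that library's hepatocyte genes in this value was not tested. Without 3D-primed replicate 3 it was 0.78 (edgeR adjusted p = 0.041), and DESeq2 also called HPX, at an adjusted p of 0.035, as did limma-voom at 0.028. In edgeR, HPX was called with total counts or upper-quartile size factors (adjusted p = 0.047 and 0.042). A filter of 10 counts in all 8 libraries gave a call too (edgeR adjusted p = 0.039). Haptoglobin (HP), which binds free haemoglobin, was not called either (log2 fold change 0.10, interval from -0.06 to 0.27).

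ORM1 and ORM2 encode the near-identical orosomucoids, carriers of lipophilic drugs, 3.39 kb apart on chromosome 9. Their reads may have been divided between them. ORM2 was counted at 113.5, 109, 99.8 and 107 CPM in 2D-primed and at 129, 146, 123 and 132.5 CPM in 3D-primed libraries. All 3D-primed libraries were higher (log2FC 0.31, edgeR adjusted p = 9.9e-04). ORM1 was counted at 176, 169, 146 and 157 CPM in 2D-primed and at 176, 203, 174 and 176 CPM in 3D-primed libraries. The groups overlapped, and the call was marginal (log2FC 0.17, edgeR adjusted p = 0.047). It was lost without any single library other than 2D-primed replicate 1 (adjusted p from 0.052 to 0.16), and with median-of-ratios size factors (adjusted p = 0.058). The ORM1 call was also lost with edgeR's own filter on low counts (edgeR adjusted p = 0.055). The ratio of ORM1 to ORM2 counts went from 1.51 ± 0.0483 to 1.38 ± 0.0346.

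RefSeq promoters were matched for 23 of the 36 genes and searched for 6 motifs, which may overlap each other, over the 250 bases before the start. No promoter was matched for C3, C4A, C4B, C1S, C8G, CFHR3, SERPING1, CLU, SAA1, SAA2, ORM2, HP and LBP. The motif counts below therefore say nothing of those genes. The C/EBP motif was present in 7 of the 23 and in 9.13% of all 27305 promoters. The STAT3 motif was present in 6 of the 23 and in 6.78% of all. Of the 13 matched genes called higher, C1RL, MBL2, MASP2, CFB and VTN held the STAT3 motif, as did CD59, which was not called, and 0 of the 4 matched genes called lower held it. The C/EBP motif was held by 4 of the 13, by 1 of the 4 and by 2 of the 6 others. These numbers are too small for a split by direction to be read from them. The HNF4 motif CAAAGTCCA and the NF-kappa-B motif GGGNNTTTC were found in 0 of the 23, against 0.293% and 4.12% of all promoters, and HNF1 in 1 of the 23, against 0.678%. The TATA box TATAAA, searched on the coding strand alone, was present in CFB, CRP and ORM1 and in 7.17% of all promoters. These are matches of letters, and binding was not measured.

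Other genes of the same systems were counted from lists made from general knowledge, but with earlier results of these data known. The counts below stand beside a background of 63.9% of all genes called, 32.4% higher and 31.6% lower. They are descriptions and single out no list. Of 28 other complement components and receptors, 9 passed the filter, of which 5 were higher, 0 were lower and 4 were not called, a smaller share called than over all genes. Carboxypeptidase N subunit 2 (CPN2), part of the enzyme that inactivates the C3a and C5a peptides, went from 32.2 ± 4.44 to 72.2 ± 5.65 CPM (log2FC 1.17, edgeR adjusted p = 2.5e-06). The C5a receptor C5AR1 had 7, 7, 10 and 4 counts in 2D-primed libraries, against 73, 65, 122 and 53 counts in 3D-primed ones. Every 3D-primed library was several-fold higher, at 3.03 ± 0.959 against 0.300 ± 0.0985 CPM (log2FC 3.31, SE 0.312, edgeR adjusted p = 6.8e-06). C5AR1 passed the filter on low counts through its 3D-primed libraries alone, so its p is no separate support for the difference, and its fold rests on few 2D-primed counts. The remaining genes called were CPN1, C1QBP and COLEC11.

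Acute phase proteins outside the 36 were split. Of 19 other positive acute phase genes 17 passed, with 8 higher, 7 lower and 2 not called. The fibrinogen chains FGG and FGA led the higher ones, at log2 fold changes of 1.77 and 1.69 (adjusted p = 7.9e-09 for each in edgeR). SERPINA3, antichymotrypsin, was among the lower ones, at -0.78 (edgeR adjusted p = 5.7e-05). Of 9 negative acute phase genes, whose plasma proteins fall in inflammation, 8 were higher and 0 were lower. Transthyretin (TTR) and albumin (ALB) had log2 fold changes of 0.81 and 0.74 (adjusted p = 1.2e-06 and 1.9e-06 in edgeR), and AHSG was not called (0.15, adjusted p = 0.077 in edgeR).

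Of 15 genes of interleukin-6 and STAT3 signalling, 14 passed, with 4 higher, 6 lower and 4 not called. The feedback inhibitor SOCS1 (log2 fold change 1.16), the receptor subunit IL6ST (0.38), CISH (0.84) and the phosphatase PTPN11 (0.17) were higher, and the kinase JAK1 (-0.92) and the oncostatin M receptor OSMR (-0.48) were the lower genes with the smallest p. IL6 itself had at most 1 count in any library. Of 21 genes of interleukin-1, TNF and NF-kappa-B signalling, 17 passed, with 5 higher, 9 lower and 3 not called. The higher ones were the receptor antagonist IL1RN (0.95), NFKBIZ (1.16), CD14 (0.78), IL1RAP (0.27) and MYD88 (0.18). The inhibitor TNFAIP3 (-1.16, adjusted p = 4.3e-08 in edgeR) and the NF-kappa-B subunit RELA (-0.63, adjusted p = 4.0e-06 in edgeR) led the lower ones.

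All 12 transcription factors of acute phase promoters passed, with 6 higher, 4 lower and 2 not called. CEBPB went from 60.1 ± 2.08 to 145 ± 5.90 CPM (log2FC 1.27, edgeR adjusted p = 2.0e-08), and the bile acid receptor NR1H4 had a log2FC of 2.17 (edgeR adjusted p = 6.3e-08). CEBPD (-1.25, adjusted p = 5.8e-06 in edgeR), the glucocorticoid receptor NR3C1 (-0.71) and FOXA2 (-0.43) were among the lower ones. CEBPB and CEBPD, related factors of the acute phase response, thus differed in opposite directions.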

How the data were processed

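Polyadenylated RNA of 8 HepG2 libraries was sequenced in read pairs with a directional kit. The authors deposited estimated counts per gene, from Salmon on the Ensembl cDNA set of GRCh38 and from tximport. They are whole numbers and not scaled to a common library size, and whether transcript length entered them is not given in the sources used here. Multi-mapping reads were divided by Salmon, which the files do not record. Groups and replicate numbers came from the labels. Symbols and positions came from GENCODE 44 by identifier, which matched 34977 of 38032 identifiers with 97.5% of the counts. The depth was 21599630 to 27844077 counts per library. Libraries of a group differed beyond counting noise (chi-square per degree of freedom 6.07 to 16.4).

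Genes that reached 10 counts in 2 or more libraries, the study's filter, were fitted with TMM, glmQLFit and glmQLFTest (edgeR 4.0.16, R 4.3.3), without covariates, and p was adjusted by Benjamini-Hochberg over all 13943 genes. The study used DESeq2. Standard errors are the log2 fold change over the root of F, and intervals are 95%. The members and the gene lists were chosen with earlier results of these data known. All 36 genes are named; the 2 with the smallest p in each role group, and the pairs C4A and C4B, SAA1 and SAA2, and ORM1 and ORM2, are given in every library. Of each other list, the 2 genes with the smallest p in each direction are named, and all genes called against its majority where these are 5 or fewer. The values of some single genes of these lists are not reported here, although they stayed in every test and count. Any other gene named, the partner pairs, the group of CRP, SAA1, SAA2 and C9 and the adult hepatocyte list were chosen after the values were seen. Promoters came from RefSeq (GRCh38.p14). The edgeR, DESeq2 and limma-voom fits were first run on simulated counts with known fold changes in 200 genes. Far more genes were called in the data, and no other variant of the fit was simulated. The alternatives were DESeq2 1.42.0, limma-voom (limma 3.58.1), other size factors, other filters, summed identifiers, a replicate block and leaving out each library. Tables were handled in Python 3.11.15 with pandas 2.3.3 and drawn with matplotlib 3.10.9.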

Additional observations from a re-analysis of the deposited data

Results flagged for a closer look

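Within the 4 libraries of a group, 4 of 60 gene-by-group sets held a library far from the other 3 by Dixon's criterion, which chance gives for about 1 in 20. C4B was at 333 CPM in 2D-primed replicate 3, against 299 to 304 CPM in the other 2D-primed libraries. MASP2 was at 5.53 CPM in the same library, against 8.52 to 8.73 CPM. C3 was at 7616 CPM in 3D-primed replicate 3, against 6657 to 6726 CPM. ORM1 was at 203 CPM in 3D-primed replicate 2, against 174 to 176 CPM. Of these genes, C4B, MASP2 and C3 kept their direction and their call in every alternative, and ORM1 lost its call without 3D-primed replicate 2 (edgeR adjusted p = 0.16).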

How the results depend on the processing

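Of 540 log2 fold changes of the 30 genes recomputed under 18 alternatives, 500 kept their direction and their side of the threshold, 21 lost the threshold, 12 gained it and 7 turned sign. In 23 genes neither direction nor call changed in any alternative. The sign turned only in C4A and C1S, which were not called in any: C4A was at -0.00132 with DESeq2 and -0.00136 with median-of-ratios size factors, and with single libraries left out it ran from -0.0503 to 0.0662, and C1S from -0.13 to 0.000630. Calls were lost in MBL2, VTN and ORM1 and gained in CD59 and HPX; without 2D-primed replicate 2, for example, MBL2 and ORM1 were lost and HPX gained. Across all alternatives 13 to 17 genes were higher and 7 to 8 lower, the fewest higher without 2D-primed replicate 3. All genes called numbered 8357 to 9070, against 8916. Replicate numbers did not pair the libraries (correlations of same-numbered deviations from -0.043 to 0.057). With the replicate block 16 genes were higher and 7 lower, with VTN lost (edgeR adjusted p = 0.082) and HPX gained (edgeR adjusted p = 0.015). The 6 genes that did not pass the filter were fitted only where no filter was applied, and their fold changes are not given, since they held 38 counts or fewer in any library.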

Other observations

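The marker lists of other cell types were summed in each library. Hepatocyte markers (10 genes) held 79771 to 86193 CPM in 2D-primed and 109739 to 122203 CPM in 3D-primed libraries. ALB (26391 ± 1398 to 44035 ± 3511 CPM) and AFP (8679 ± 376 to 18752 ± 553 CPM) carried most of that difference, while APOB (log2 fold change -0.25, edgeR adjusted p = 0.016) and SERPINA1 (-0.14, edgeR adjusted p = 0.011) were lower and AHSG was not called. Macrophage markers (9 genes) held 74.1 to 76.6 and 33.0 to 43.7 CPM, mostly CD68, which is not restricted to macrophages, and CD163, MARCO, TYROBP and VSIG4 were at 0 in all 8 libraries. Endothelial markers (6 genes) held 5.79 to 8.14 and 4.41 to 5.91 CPM, with STAB2 at 0. Fibroblast and stellate markers (7 genes) held 43.5 to 47.6 and 41.7 to 49.7 CPM, with COL1A1 lower (0.969 ± 0.226 to 0.0703 ± 0.0490 CPM, edgeR adjusted p = 9.6e-05), PDGFRB higher (10.7 ± 0.432 to 16.4 ± 1.22 CPM, edgeR adjusted p = 1.8e-05), and COL1A2, DCN and LUM at or near 0. COL1A1 passed the filter on low counts through its 2D-primed libraries alone, so its p is no separate support for the difference. Lymphocyte markers (6 genes) held 4.41 to 5.66 and 1.75 to 3.15 CPM, with CD3E, MS4A1 and TRAC at 0. The part of these lists in the complement and acute phase values was not tested.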
